A study of Mus musculus with 2 samples.

Results

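Apoe, Lpl, Trem2, Gpnmb, Spp1, Fabp5, Cd36, Abca1 and Pltp, 9 genes that are often read together in lipid-handling macrophages, were followed in single cells of a mouse tumour. They were taken by gene symbol among the 32285 features of the count matrices, and all 9 were found. The tumours were allografts of J558, a mouse plasmacytoma line, grown under the skin of the right flank of female BALB/c mice. For 6 days the mice received either the vehicle, 0.5% methylcellulose, or TAK-931, an inhibitor of the replication kinase CDC7, at 60 mg/kg by mouth each day. There was 1 library of each kind from dissociated tumour tissue, so no spread between animals could be measured and no test was made. Every interval below is a 95% interval for counted transcripts (as unique molecular identifiers, UMIs, 1 for each captured transcript) or counted cells, and covers counting error only. A difference between the libraries therefore cannot be told apart from a difference between the tumours or preparations. The comparison asked whether phagocytes of the treated tumour carried this set of genes at another level than those of the vehicle tumour.

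Tissue macrophages clear dying cells and lipoproteins and must pass on the cholesterol and fatty acids they take in. Lipoprotein lipase (Lpl) frees fatty acids from lipoproteins, Cd36 takes up fatty acids and oxidised lipoproteins, and Fabp5 carries fatty acids inside the cell. Abca1 moves cholesterol out of the cell onto apolipoproteins, Apoe is such an apolipoprotein, and Pltp moves phospholipids between lipoprotein particles. Trem2 is a lipid-sensing surface receptor that signals through Tyrobp, Gpnmb is a glycoprotein of lysosomes and the cell surface, and Spp1 encodes the secreted protein osteopontin. In tumours and in fatty or damaged tissue, macrophages that carry several of these genes together are often described as lipid-associated.

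In mm10 coordinates Apoe lies at chr7:19696109-19699188 on the minus strand, Lpl at chr8:68880491-68907448 on the plus strand and Trem2 at chr17:48346401-48354147 on the plus strand. Gpnmb lies at chr6:49036546-49070929, Spp1 at chr5:104435118-104441050 and Fabp5 at chr3:10012548-10016607, all on the plus strand. Cd36 lies at chr5:17781690-17888801, Abca1 at chr4:53030787-53159895 and Pltp at chr2:164839518-164857711, all on the minus strand. All 9 are protein-coding, and Pltp alone overlaps another counted gene, Ctsa, on the opposite strand. RefSeq promoter windows were at hand for 7 of the 9 genes. Those of Cd36, Abca1 and Trem2 are printed below because Cd36 and Abca1 were among the genes most above vehicle in monocyte-like cells of the TAK-931 library and Trem2 was the one furthest below. Each line is the 250 bases before the start site in mm10, read in the direction of the gene. Capitals mark a match on either strand to an E-box (CACGTG), an AP-1 site (TGANTCA), an ETS site (GAGGAAGT), a GC box (GGGCGG) or a TATA box (TATAAA).
Cd36, chr5:17835897-17836146, minus strand: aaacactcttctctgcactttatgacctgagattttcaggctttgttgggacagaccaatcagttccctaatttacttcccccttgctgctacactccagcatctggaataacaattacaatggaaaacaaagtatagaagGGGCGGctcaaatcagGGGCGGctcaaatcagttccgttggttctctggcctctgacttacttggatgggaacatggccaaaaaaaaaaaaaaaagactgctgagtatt
Abca1, chr4:53159896-53160145, minus strand: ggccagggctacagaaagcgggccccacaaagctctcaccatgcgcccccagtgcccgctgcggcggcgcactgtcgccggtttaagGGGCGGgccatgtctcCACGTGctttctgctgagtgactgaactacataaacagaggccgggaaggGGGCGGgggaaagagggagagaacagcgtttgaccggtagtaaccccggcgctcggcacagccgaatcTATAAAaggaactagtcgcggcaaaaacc
Trem2, chr17:48346151-48346400, plus strand: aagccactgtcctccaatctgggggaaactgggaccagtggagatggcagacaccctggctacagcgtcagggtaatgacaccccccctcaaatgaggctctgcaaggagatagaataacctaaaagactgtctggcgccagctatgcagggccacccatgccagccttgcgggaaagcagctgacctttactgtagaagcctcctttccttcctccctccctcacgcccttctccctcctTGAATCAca
The Cd36 window falls inside the annotated gene rather than at its outer end. It held 2 GC boxes, 109 and 93 bases before the start (counted to the first base of the match), and the Abca1 window held 2 GC boxes, an E-box and a TATA box. The Trem2 window held an AP-1 match 9 bases before its start. Over 32851 windows of the annotation, each 250 bases before to 50 after a start, 35.7% held a GC box, 13.6% a TATA box, 7.81% an AP-1 match, 7.15% an E-box and 3.20% an ETS match. Direct repeats of AGGTCA with 4 or with 1 base between, the letters read by nuclear receptors of the LXR and PPAR families, were in 0.0152% and 0.0396% of windows and in none of the 7 members' windows.

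After the study's filter of over 2000 genes and under 15% mitochondrial UMIs, the vehicle library kept 3441 of 4565 barcodes and the TAK-931 library 3488 of 6558, with medians of 40504 and 15097 UMIs. The libraries shared 8 cell barcodes. Each cell was classed by the summed UMIs of fixed marker lists per 10000 UMIs, and mononuclear phagocytes were divided by the complement genes C1qa, C1qb and C1qc. C1q-high macrophage-like cells had at least 20 C1q UMIs per 10000 and numbered 126 with vehicle and 1180 with TAK-931, with medians of 13182 and 16949.5 UMIs. Monocyte-like cells had under 5 C1q UMIs and at least 10 UMIs of classical monocyte genes (such as Ly6c2, Ccr2 and Plac8) per 10000, and numbered 77 and 688. The gates separated as they were set: C1qa was at 5816 and 4599.8 CPM in the C1q-high and 4.5 and 42.0 CPM in the monocyte-like class, and Plac8 at 202 and 612 against 2398 and 3277 CPM. Within 1.5 times of the C1q limit lay 3 of 220 vehicle and 97 of 2125 TAK-931 phagocytes. J558 tumour cells numbered 3028 and 122, so the 2 libraries hold very different mixtures of cells. UMIs of tumour genes (immunoglobulin genes, Jchain and Trap1a) summed to 1231 CPM, the UMIs of a gene or list per 1000000 UMIs of the summed cells, in vehicle C1q-high cells against 408 in those of TAK-931, and T cell markers to 3.11 against 104. The part of such RNA from other cells in the values below was not tested, apart from the alternatives named.

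Over all kept cells the whole set was higher in the TAK-931 library. Apoe stood at 306 CPM in vehicle and 7074 CPM in TAK-931, Pltp at 5.92 and 211, Lpl at 3.74 and 90.8, Trem2 at 5.08 and 70.1, Abca1 at 9.52 and 108, and Cd36 at 7.32 and 85.6. Of the 9 genes 7 were at least 2-fold higher and 0 at least 2-fold lower, where 33.9% of 15087 genes were higher and 19.3% lower by that much. Fabp5 went from 462 to 619 CPM and Gpnmb from 3.47 to 5.43, both under 2-fold. The cell mixtures differed as well: 88.0% of kept vehicle cells were J558 tumour cells, and 60.9% of kept TAK-931 cells were phagocytes. In a sum over cells, more cells of a type and more RNA per cell cannot be told apart, so the levels within each class are given next.

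Where the UMIs of each gene came from differed between members and between libraries. C1q-high cells held 78.9% of the Apoe UMIs, 82.1% of the Trem2 UMIs, 75% of the Lpl UMIs and 74.3% of the Pltp UMIs of kept vehicle cells, although they were 3.66% of those cells. In the TAK-931 library, where they were 33.8% of kept cells, they held 88.0%, 89.4%, 66.3% and 79.6%. The other genes had other main sources in the vehicle tumour. J558 cells held 92.4% of Fabp5 and 91.2% of Gpnmb UMIs, endothelial-like cells 80.1% of Cd36 UMIs, and fibroblast-like and mural-like cells 50.4% and 30.0% of Spp1 UMIs. Abca1 was divided between J558 cells (45.6%), endothelial-like cells (27.3%) and C1q-high cells (20.3%). In the TAK-931 library endothelial-like cells still held 44.3% of Cd36 UMIs, the highest share of any class, and C1q-high cells now held 58.2% of Fabp5, 60.9% of Abca1 and 43.4% of Gpnmb UMIs. For Gpnmb and Abca1 the large tumour cell share came with a low level per cell, 3.32 and 4.56 CPM in 3028 vehicle J558 cells.

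**Figure D1:**
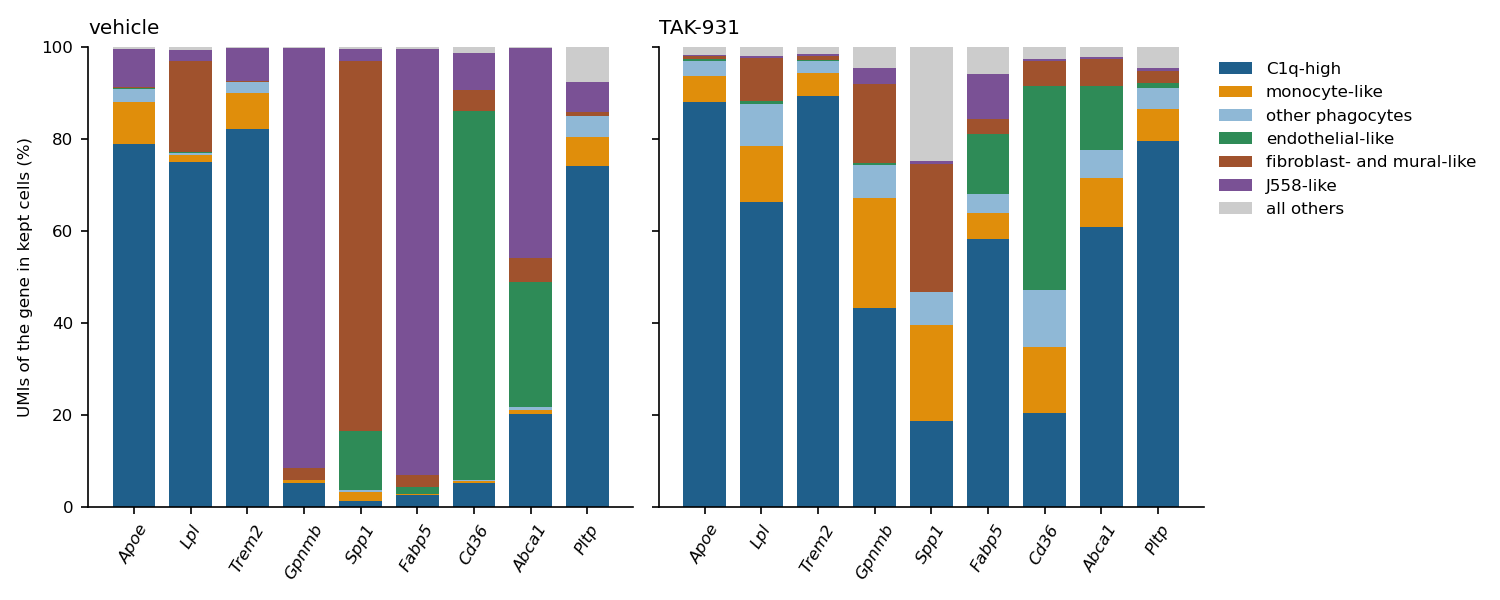
Share of each gene's UMIs in kept cells (percent, stacked bars) by cell class, vehicle on the left and TAK-931 on the right. C1q-high cells hold most Apoe, Lpl, Trem2 and Pltp UMIs in both, while J558 cells hold 92.4% of vehicle Fabp5 UMIs and endothelial-like cells 80.1% of vehicle Cd36 UMIs.

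By level, C1q-high cells stood first of all classes for Apoe, Trem2 and Pltp in both libraries, though in vehicle their Pltp interval overlapped that of other phagocytes. For Apoe the order in vehicle was C1q-high (17679.9 CPM), other phagocytes (8034) and monocyte-like cells (5859), with no overlap of intervals, and then, leaving out 16 cells that passed no gate (463) and 3 C1q-intermediate phagocytes (7099.6, with an interval that overlapped that of other phagocytes), dendritic-like (269.5) and T-like cells (227), whose intervals overlapped. In TAK-931 the order was C1q-high (18776), other phagocytes (6174), C1q-intermediate phagocytes (3872), monocyte-like (2999.8) and non-classical monocyte-like cells (2079). For Trem2 the levels were 305 CPM in vehicle C1q-high and 84.0 in monocyte-like cells, against 189 and 26.1 in TAK-931 and at most 20 CPM in any class outside the phagocytes. Pltp was also found in dendritic-like cells, at 203 CPM in vehicle and 228 in TAK-931, next to 237 and 252 in other phagocytes, with overlapping intervals in each library. Abca1 was highest in endothelial-like cells of both libraries (228 and 284 CPM), above C1q-high cells (142 and 199). Cd36 was at 516 and 706 CPM in endothelial-like cells, and in TAK-931 the 39 non-classical monocyte-like cells reached 785, with intervals that overlapped those of the endothelium. The non-classical monocyte-like cells had a median endothelial marker score of 4.31 per 10000 UMIs. Lpl in stroma stood at 72.3 CPM in vehicle and 181 in TAK-931 fibroblast-like cells, the latter the same as in C1q-high cells of that library. Other phagocytes were first for Lpl in TAK-931, at 247 CPM with no overlap of intervals, and stood at 14.8 CPM on 2 UMIs in vehicle.

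**Figure D2:**
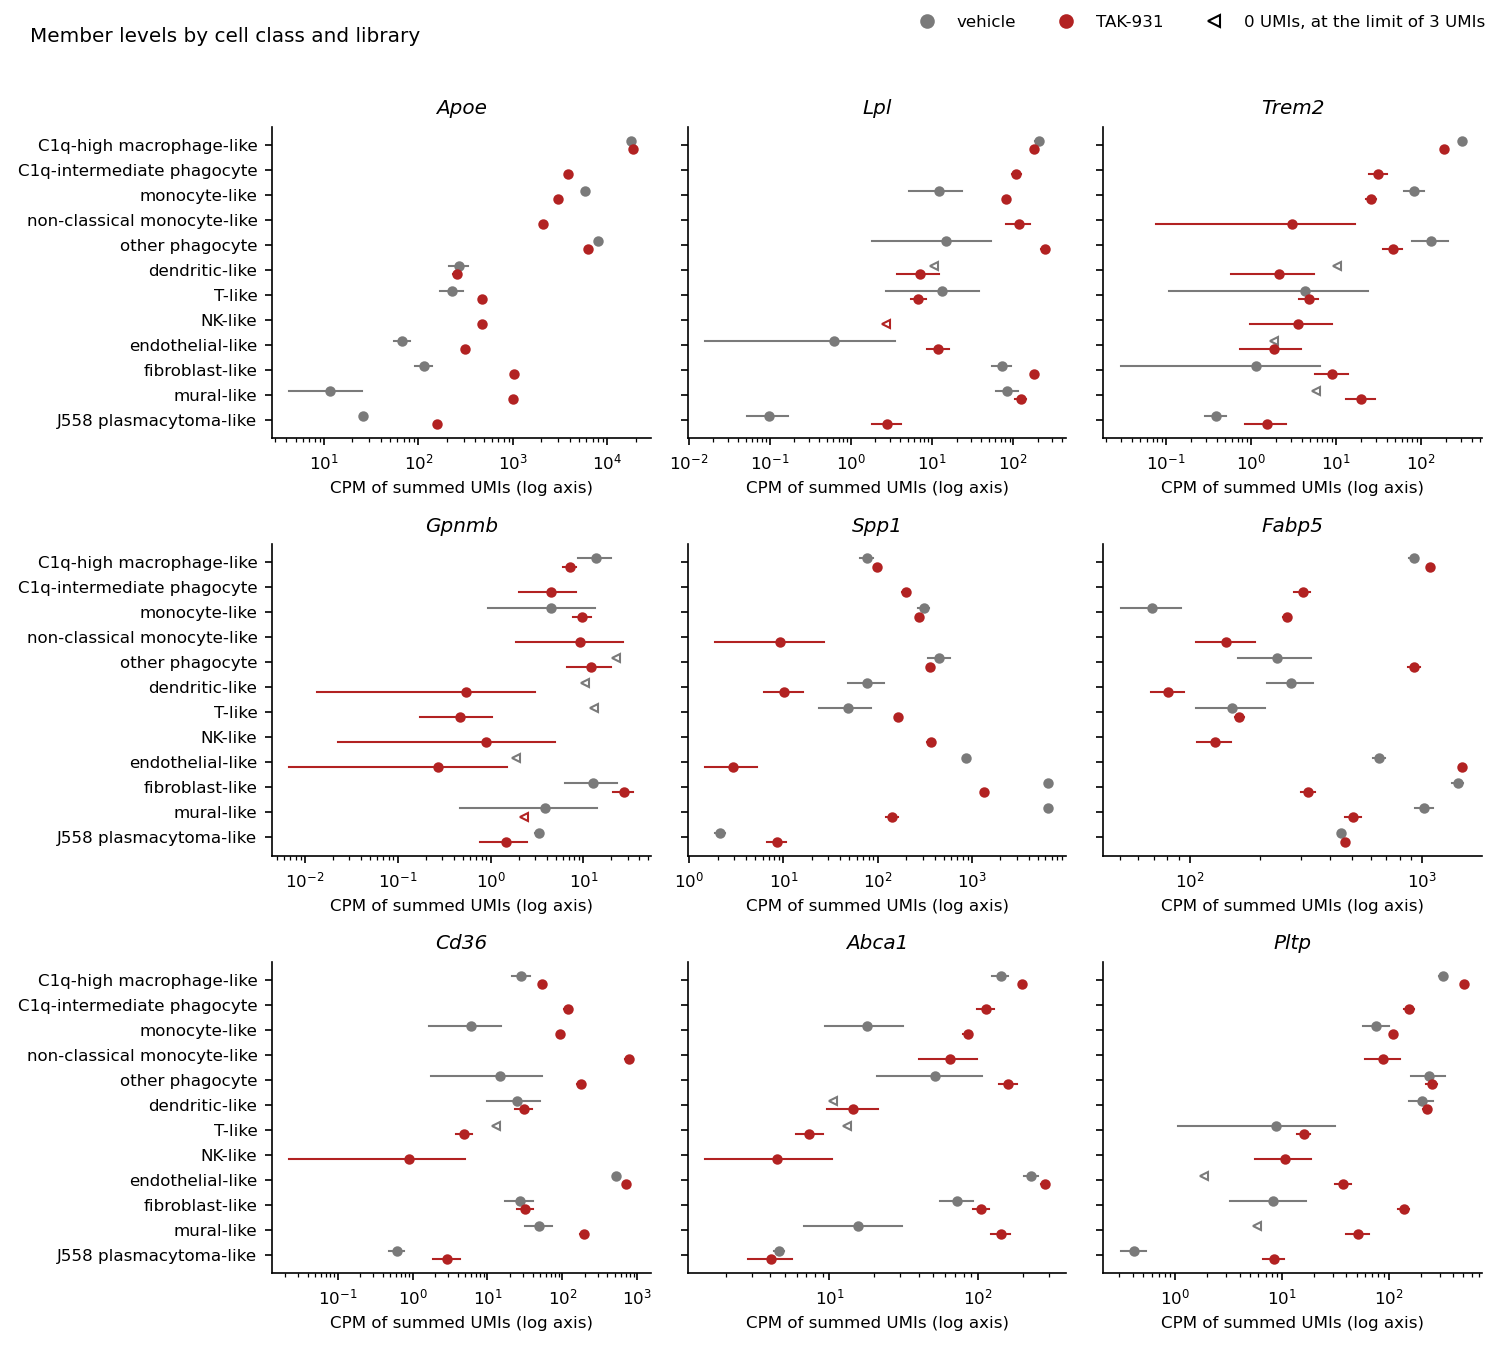
Level of each member (CPM of summed UMIs, log axis) in 12 cell classes, vehicle in grey and TAK-931 in red, with exact Poisson 95% intervals and open triangles at the limit of 3 UMIs where no UMI was seen. Apoe, Trem2 and Pltp peak in C1q-high cells, Cd36 and Abca1 are high in endothelial-like cells, and Spp1 is highest in vehicle fibroblast-like and mural-like cells, while in TAK-931 mural-like cells it is at 141 CPM.

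Spp1 and Fabp5 were highest in the stroma of the vehicle tumour. Spp1 stood at 6359.8 CPM in 25 fibroblast-like and 6333 CPM in 22 mural-like cells, and those classes stood at 1324 CPM (65 cells) and 141 CPM (46 cells) in TAK-931. The log2 ratios of TAK-931 to vehicle were -2.26 (-2.33 to -2.20) and -5.49 (-5.71 to -5.28). After each cell was thinned to 4000 UMIs, an Spp1 UMI was found in 84.0% and 77.3% of these vehicle cells and in 29.2% and 19.6% of those of TAK-931. Of the TAK-931 classes with at least 10 cells, endothelial-like cells had the lowest Spp1 (2.95 CPM, 1.52% of thinned cells). B-like (7.78 CPM), J558 (8.49 CPM), non-classical monocyte-like (9.20 CPM) and dendritic-like cells (10.2 CPM) came next. T-like cells stood at 163 CPM and 18.2%. The stromal classes also differed in their markers: the median mural score was 58.3 per 10000 UMIs in vehicle and 1.31 in TAK-931 fibroblast-like cells, and 175 and 80.4 in mural-like cells. Its part in the Spp1 and Fabp5 values was not tested. The vehicle endothelial level of 857 CPM was that of few cells, since 88.0% of those 1374 UMIs came from 1 cell and 7 of 82 cells had any. Fabp5 stood at 1422 CPM in the vehicle fibroblast-like and 1018 CPM in the vehicle mural-like cells, the latter with an interval that overlapped that of C1q-high cells, and at 323 and 506 CPM in TAK-931. Its log2 ratios were -2.14 (-2.27 to -2.01) and -1.01 (-1.18 to -0.84). Endothelial-like cells were first for Fabp5 in TAK-931, at 1487 CPM against 653 in vehicle. The endothelial-like cells of the 2 libraries fell in different clusters, cluster 15 with 81 vehicle and 1 TAK-931 cell and cluster 8 with 4 and 237, so that their levels of Fabp5, Cd36, Abca1 and Gpihbp1 are not those of matched cells. Within the phagocytes Spp1 was higher in monocyte-like than in C1q-high cells of both libraries.

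In C1q-high cells taken as a whole, all 9 genes had a ratio of TAK-931 to vehicle whose interval excluded 0. Of these genes 0 were at least 2-fold higher and 0 at least 2-fold lower. Of the 10281 genes that reached 50 UMIs over the pair of sums, 9.15% were higher and 8.14% lower by that much, and the median log2 ratio was 0.24 over the members and -0.08 over all genes. Among the genes of uptake, Cd36 was at 28.0 CPM (54 UMIs) in vehicle and 52.7 CPM (1212 UMIs) in TAK-931, a log2 ratio of 0.91 (0.52 to 1.33). Lpl was at 206 and 181 CPM, a ratio of -0.18 (-0.33 to -0.03). For fatty acid binding, Fabp5 stood at 919.6 and 1087 CPM, a ratio of 0.24 (0.17 to 0.31).
Among the genes of lipid export, Apoe stood at 17679.9 and 18776 CPM, a log2 ratio of 0.09 (0.07 to 0.10), which is nearly level. Abca1 was at 142 and 199 CPM with a ratio of 0.49 (0.32 to 0.67), and Pltp at 322 and 506 CPM with a ratio of 0.65 (0.54 to 0.77). Among the receptors and glycoproteins, Trem2 and Gpnmb were lower and Spp1 was higher. Trem2 was at 305 CPM (588 UMIs) in vehicle and 189 CPM (4341 UMIs) in TAK-931, a ratio of -0.69 (-0.82 to -0.57). Trem2 was detected in 53.2% (44.1 to 62.1) of vehicle and 34.1% (31.4 to 36.9) of TAK-931 C1q-high cells thinned to 4000 UMIs, and in 0.904% of TAK-931 T-like cells, which should lack it, thinned in the same way. Before thinning the shares were 72.2% and 56.5% of C1q-high and 4.67% of T-like cells, the last at a median depth of 14534 UMIs. Tyrobp, its signalling partner, was at 2456 and 2252 CPM. Spp1 was at 76.3 and 98.8 CPM with a ratio of 0.37 (0.13 to 0.62). Gpnmb was at 13.5 and 7.09 CPM, but 21 of its 26 vehicle UMIs came from 1 of the 126 cells, on which its ratio of -0.93 (-1.53 to -0.27) rests. Among thinned cells a Gpnmb UMI was seen in 1.59% of those from vehicle and in 2.12% of those from TAK-931.

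The C1q-high class was itself a mixture, and its makeup differed between the libraries. Classical monocyte markers reached 10 UMIs per 10000 in 18 of 126 vehicle cells (14.3%, 8.69 to 21.6) and in 483 of 1180 TAK-931 cells (40.9%, 38.1 to 43.8). Ly6c2, one of these markers, was at 25.9 CPM with vehicle and 393 CPM with TAK-931 in the class as a whole. Cells without that level of monocyte markers carried more of most members. In TAK-931 their Apoe level was 23257 CPM against 11559 in the cells with monocyte markers, Trem2 247 against 95.1, Fabp5 1456 against 492, Lpl 225 against 111 and Pltp 563 against 414. Spp1 ran the other way, 81.7 against 126 CPM in TAK-931 and 64.8 against 161 in vehicle, and Cd36 was nearly level in TAK-931, 55.4 against 48.5.
Compared like with like, the ratios of TAK-931 to vehicle moved. In C1q-high cells without the monocyte markers (108 and 697 cells), Apoe was at 18871 CPM in vehicle and 23257 in TAK-931, a log2 ratio of 0.30 (0.28 to 0.32), Fabp5 at 962 and 1456 (0.60, 0.53 to 0.67), and Pltp at 341 and 563 (0.72, 0.60 to 0.85). Trem2 was at 321 and 247 CPM, a ratio of -0.38 (-0.51 to -0.24) in place of -0.69, and the Lpl ratio was 0.10 (-0.06 to 0.26). Cells with the markers were 18 in vehicle, and there Trem2 was at 191 CPM (44 UMIs) against 95.1, a ratio of -1.01 (-1.45 to -0.54).
Leiden clusters, made without the 9 genes, divided the class in another way. Cluster 3 held 54 vehicle and 795 TAK-931 C1q-high cells and was led over cluster 7 by Ms4a4c, Ly6c2, Ly6a and Ccr2. Cluster 7 held 59 and 182 such cells, and 13 and 121 fell in the monocyte-like cluster 4. Further TAK-931 C1q-high cells lay in the monocyte-like cluster 9 (42), the endothelial-like cluster 8 (17), the T-like cluster 10 (15) and, in smaller numbers, in others, all with 0 from vehicle. Cluster 7 was led by Slc40a1, Atp6v0d2, Vcam1 and Igf1, with Fabp5 at 2811 CPM against 593. Within cluster 7 Trem2 was at 424 CPM in vehicle and 544 CPM in TAK-931, a log2 ratio of 0.36 (0.22 to 0.51), and Apoe was at 20929.9 and 42875 CPM (1.03, 1.01 to 1.05). Within cluster 3 Trem2 was at 147 and 122 CPM (-0.26, -0.55 to 0.04) and Fabp5 at 206 and 612 CPM (1.57, 1.34 to 1.82). The lower Trem2 level of the whole class was therefore not seen at that size in either cluster, while Apoe, Fabp5, Abca1 and Pltp were above vehicle in both clusters. Cd36 differed by cluster, with 11.5 and 50 CPM in cluster 3 (2.12, 1.13 to 3.34) and 41.1 and 38.9 CPM in cluster 7 (-0.08, -0.56 to 0.43).

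**Figure D3:**
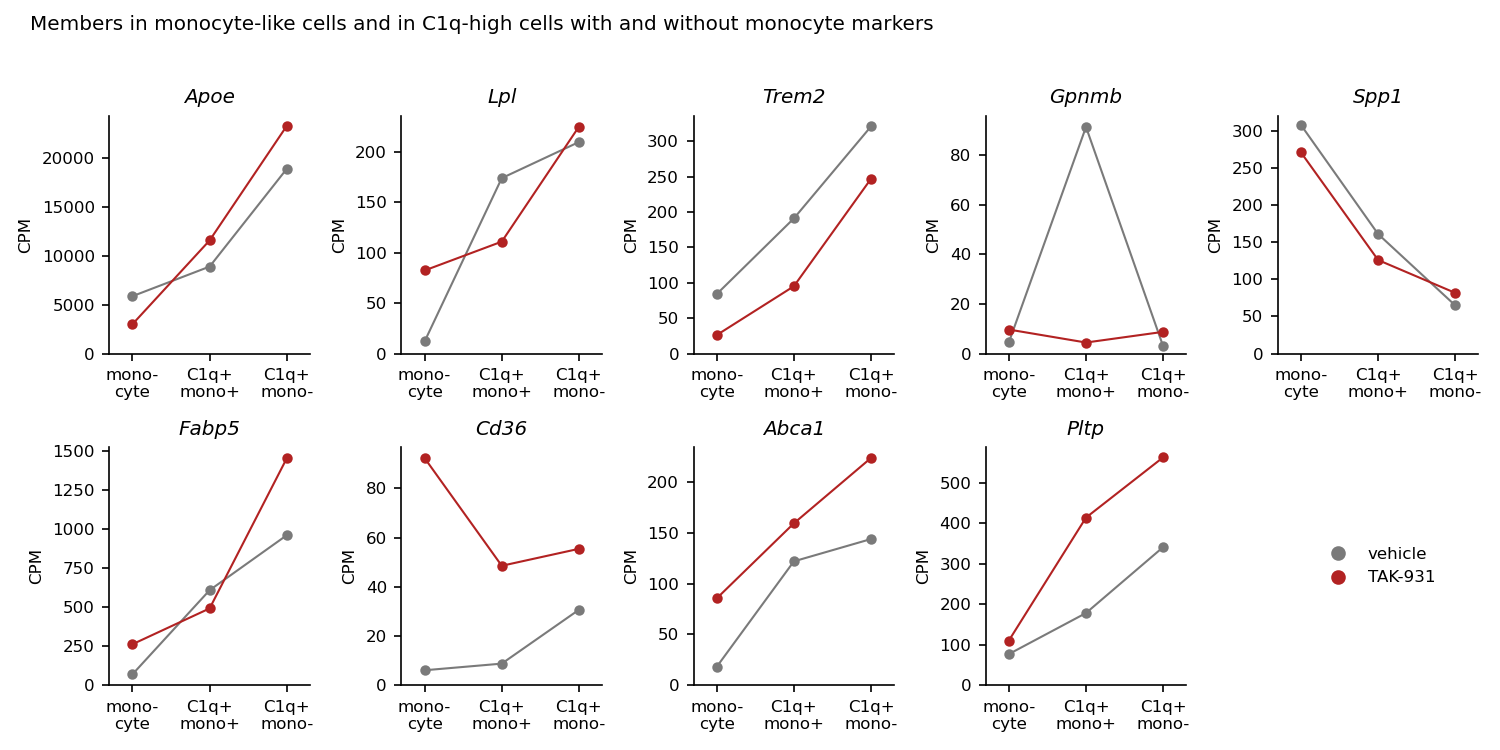
CPM of each member in monocyte-like cells, in C1q-high cells with classical monocyte markers of at least 10 per 10000 UMIs (C1q+ mono+) and in C1q-high cells below it (C1q+ mono-), vehicle in grey and TAK-931 in red. Apoe, Trem2, Fabp5 and Pltp climb from left to right in both libraries, Spp1 runs the other way, and the vehicle Gpnmb point of 91.4 CPM comes from 1 cell.

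Members passed 2-fold in several classes of cells. In monocyte-like cells more of the members passed 2-fold than in the C1q-high class as a whole, where 0 did, although 3 did within cluster 3 and 4 within cluster 7. Of the 9 genes 5 were at least 2-fold higher in TAK-931 and 1 at least 2-fold lower, where 12.2% of 8299 counted genes were higher and 3.49% lower by that much. The median log2 ratio was 1.10 over the members and 0.10 over all genes. Cd36 had 4 UMIs in 77 vehicle cells (6.00 CPM) and 859 UMIs in 688 TAK-931 cells (92.3 CPM), a log2 ratio of 3.94 (2.58 to 5.82). A Cd36 UMI was seen in 2.60% (0.316 to 9.07) of the vehicle cells after thinning to 4000 UMIs and in 18.0% (15.2 to 21.1) of those of TAK-931, and in 1.05% of TAK-931 T-like cells thinned in the same way. Before thinning these shares were 5.19%, 31.0% and 3.46%. Lpl had 8 UMIs in vehicle (12.0 CPM) and 767 in TAK-931 (82.4 CPM), a ratio of 2.78 (1.79 to 4.00), and 138 of the 767 came from 1 cell.
Abca1 was at 18.0 and 85.5 CPM, a ratio of 2.25 (1.43 to 3.21), with 12 UMIs in vehicle. Fabp5 was at 69.0 and 262 CPM, a ratio of 1.92 (1.5 to 2.38), and Pltp at 76.5 and 110.0 CPM, a ratio of 0.52 (0.12 to 0.96). Within the monocyte-like cluster 4 (68 and 494 gated cells) Pltp did not differ beyond counting error, at 74.8 and 75.1 CPM (0.00, -0.45 to 0.49). Gpnmb passed 2-fold on 3 vehicle UMIs, all from 1 cell, against 90, and its interval of -0.49 to 3.41 reached both sides of 0.
In the opposite direction, Trem2 was at 84.0 CPM (56 UMIs in 33 cells) in vehicle and 26.1 CPM (243 UMIs in 128 cells) in TAK-931, a log2 ratio of -1.69 (-2.11 to -1.24). Apoe was at 5859 and 2999.8 CPM, a ratio of -0.97 (-1.01 to -0.92), just inside the 2-fold limit. The median vehicle monocyte-like cell held 46.6 Apoe UMIs per 10000 and the median TAK-931 cell 12.0. Spp1 was at 308 and 271 CPM with a ratio of -0.18 (-0.39 to 0.03), which includes 0. Other classes had members past 2-fold too. In other phagocytes 4 of 8 counted were higher (Lpl, Cd36, Fabp5 and Abca1) and 1 lower (Trem2), beside 16.1% and 3.97% of all genes. The counts were 5 and 1 of 8 in J558 cells (9.24% and 5.08%) and 4 and 2 of 8 in fibroblast-like cells (10.7% and 7.83%). They were 4 and 2 of 7 in mural-like (16.4% and 4.83%) and 0 and 1 of 4 in dendritic-like cells (11.3% and 2.36%). In T-like cells 2 of 8 were higher (19.3%).

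**Figure D4:**
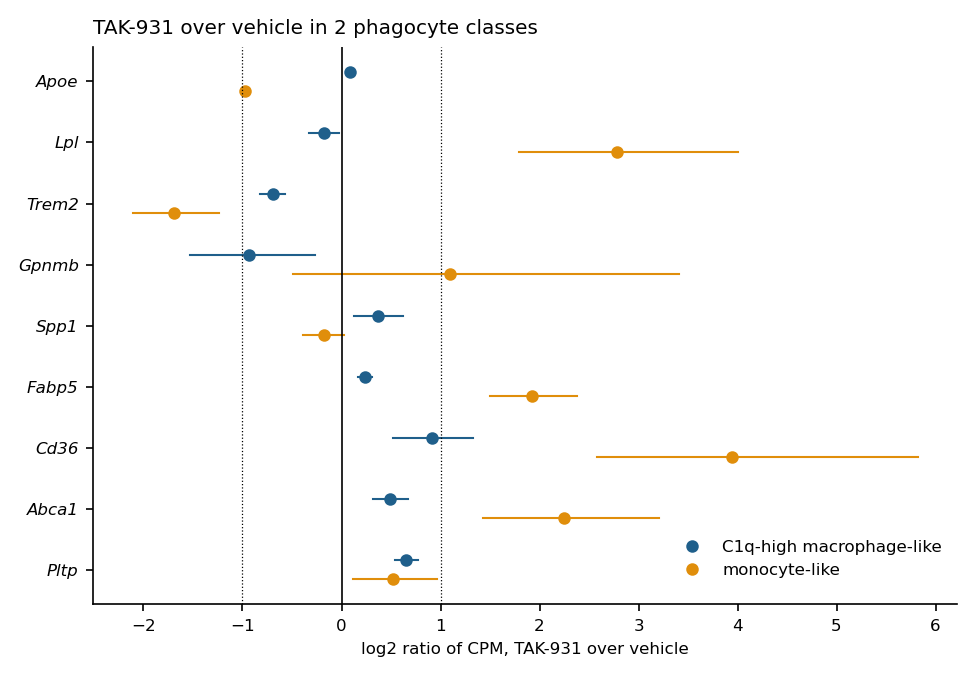
Log2 ratio of CPM in TAK-931 over vehicle for each member, with 95% intervals of the counts, in C1q-high macrophage-like (blue) and monocyte-like cells (orange), dotted lines at 2-fold. All 9 C1q-high ratios lie within 2-fold, while Cd36, Lpl, Abca1 and Fabp5 lie above 2-fold and Trem2 below it in monocyte-like cells.

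Since Cd36, Fabp5 and Abca1 are also genes of the endothelium, the endothelial markers were followed beside them. Their 7 genes summed to 33.0 CPM in vehicle and 124 CPM in TAK-931 monocyte-like cells, with Cdh5 at 0 and 20.5 CPM, and to 61.2 and 80.9 CPM in C1q-high cells, of which Pecam1, a gene of monocytes as well, made 52.4 and 44.3. With every cell holding a UMI of any of the 7 left out, 62 of 77 and 421 of 688 monocyte-like cells stayed. In these Cd36 was at 3.75 CPM (2 UMIs) in vehicle and 72.2 CPM (397 UMIs in 115 cells) in TAK-931, a log2 ratio of 4.27 (2.41 to 7.32). Abca1 was at 22.5 and 90.2 CPM (2.00, 1.19 to 2.97), Fabp5 at 73.0 and 234 CPM (1.68, 1.22 to 2.18) and Lpl at 15 and 89.7 CPM (2.58, 1.59 to 3.8). Fabp4, another fatty acid binding gene, stood in TAK-931 at 8775 CPM in endothelial-like and 399 CPM in non-classical monocyte-like cells. Over all monocyte-like cells it was at 6.00 and 121 CPM. Without the cells holding endothelial markers it was at 3.75 (2 UMIs) and 12.7 CPM. That log2 ratio was 1.76, with an interval of -0.14 to 4.84 that included 0. In C1q-high cells without endothelial markers Fabp4 was at 3.12 and 34.0 CPM (3.45, 1.89 to 5.73). In C1q-high cells without endothelial markers (65 of 126 and 563 of 1180) the Cd36 ratio was 0.54 (0.05 to 1.08).

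Because the class levels shifted unequally, the order of the classes differed between the libraries for some members. In vehicle, C1q-high cells exceeded monocyte-like cells by at least 2-fold for 7 of 8 counted members and stood below them for 1, Spp1, where 11.3% of 5211 genes were higher and 6.54% lower by that much. In TAK-931 the counts were 6 and 1 of 9 members, where 7.27% of 10754 genes were higher and 6.68% lower. Cd36 was 28.0 CPM in C1q-high and 6.00 in monocyte-like cells of vehicle, a log2 ratio of 2.22 (0.78 to 4.15). In TAK-931 it was 52.7 and 92.3 CPM, a ratio of -0.81 (-0.93 to -0.68), and the order was turned. The Lpl ratio was 4.10 (3.11 to 5.32) in vehicle and 1.14 (1.03 to 1.25) in TAK-931, that of Abca1 2.98 (2.15 to 3.95) and 1.22 (1.11 to 1.33), and that of Fabp5 3.74 (3.31 to 4.19) and 2.05 (1.99 to 2.12). For Apoe and Trem2 the gap was wider in TAK-931, 1.59 (1.55 to 1.64) against 2.65 (2.63 to 2.66) for Apoe and 1.86 (1.46 to 2.28) against 2.86 (2.67 to 3.05) for Trem2. Pltp kept its distance, 2.07 (1.66 to 2.51) and 2.20 (2.11 to 2.29). Spp1 was lower in C1q-high cells of both, -2.01 (-2.33 to -1.70) and -1.46 (-1.54 to -1.38). The genes that led the monocyte-like cells over the median of the other classes of their library also differed. Among them were the MHC class II genes H2-Aa, H2-Eb1 and H2-Ab1 in vehicle, and Thbs1 and F13a1 in TAK-931. Such a lead depends on the other classes as well. F13a1 itself stood at 108 CPM in vehicle and 95.5 CPM in TAK-931 monocyte-like cells.

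**Figure D5:**
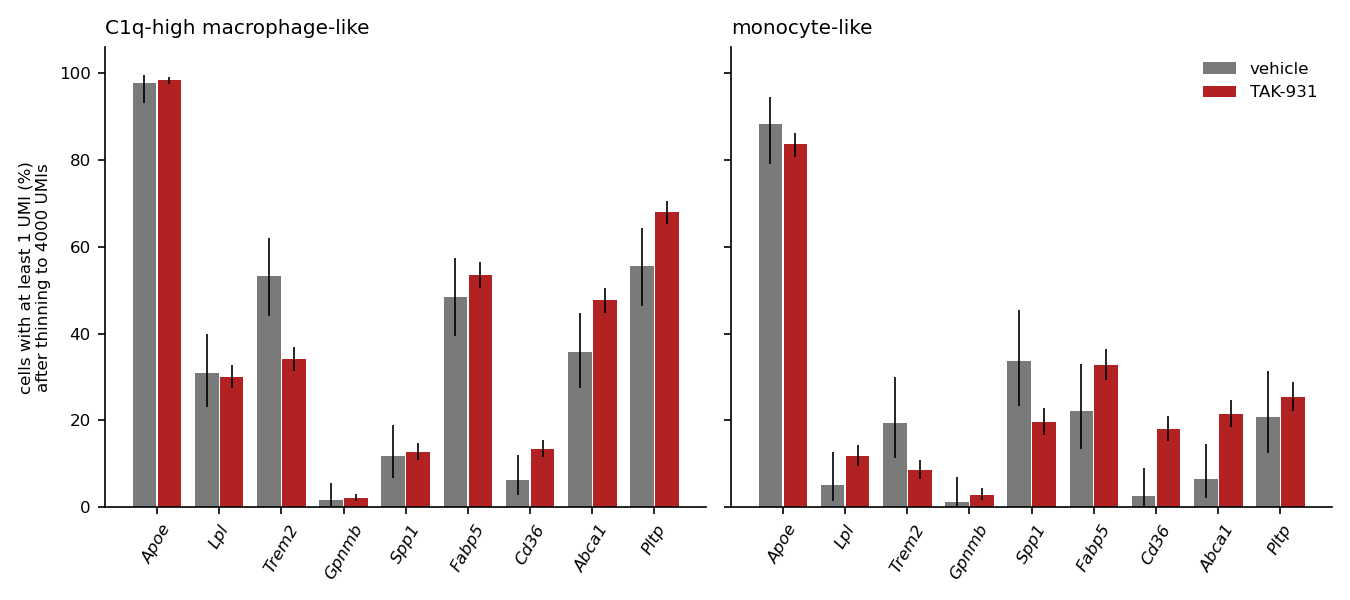
Share of cells (percent) with at least 1 UMI of each member after thinning every cell to 4000 UMIs, in C1q-high macrophage-like cells on the left and monocyte-like cells on the right, vehicle in grey and TAK-931 in red, with exact binomial 95% intervals. Trem2 stands at 53.2% and 34.1% in C1q-high cells, and Cd36 stands at 2.60% and 18.0% in monocyte-like cells.

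Single macrophages carried the genes in different combinations. At 4000 UMIs a C1q-high cell showed a median of 3 members in vehicle and 4 in TAK-931, and 9.52% and 9.92% of the cells showed 6 or more. In T-like cells of TAK-931 an Apoe UMI was seen in 41.0% and a Fabp5 UMI in 34.2% of thinned cells. Monocyte-like cells showed a median of 2 in both. Over the 1180 TAK-931 C1q-high cells the highest Pearson correlations of per-cell levels were those of Trem2 with Fabp5 (0.50) and of Apoe with Trem2 (0.45), and over the 126 vehicle cells that of Trem2 with Fabp5 (0.38). Fabp5 was seen in 74.1% of the thinned TAK-931 cells with a Trem2 UMI and in 42.8% of those without. Abundance was uneven between cells for some members: the 10% of TAK-931 C1q-high cells with the most UMIs of a gene held 87.8% of Spp1 UMIs and 67.7% of Fabp5 UMIs, but 35.2% of Apoe UMIs. These correlations are over cells of 1 library that share depth and free RNA, and are descriptions.

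Across 22 sums of class and library, Apoe and Trem2 were most alike among the members (Pearson r = 0.88 of log2 of CPM with 10 added), followed by Apoe and Pltp (0.81) and Cd36 and Abca1 (0.76). Among 9851 genes with at least 100 UMIs in phagocytes, the genes nearest to each member were Fcgr2b and Fcgr3 for Apoe (r = 0.925 and 0.916), Abcc3 and Mrc1 for Trem2 (0.958 and 0.951), Cxcl16 and Mpeg1 for Pltp (0.932 and 0.931), and Dse and Mitf for Lpl (0.892 and 0.862). They were Plk2 and Cdc42ep2 for Cd36 (0.913 and 0.865), Tmem140 and Pfkfb3 for Abca1 (0.902 and 0.865), Zfp143 and Dctn2 for Fabp5 (0.845 and 0.838), Inhba and Arl1 for Spp1 (0.797 and 0.774), and Mgst1 and Rassf8 for Gpnmb (0.790 and 0.777). The sums share libraries and differ in depth, so these values describe these sums only.

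Wider lists of lipid genes, none holding a member, were read in the same 2 classes. Over the 9 lists 6 of 98 counted genes (Nr1h3 and Apoc2, each in 2 lists, counted once) were at least 2-fold higher and 9 at least 2-fold lower in TAK-931 C1q-high cells, near the 9.15% and 8.14% of all genes. In monocyte-like cells 13 of 89 were higher and 11 lower, beside 12.2% and 3.49% of all genes. Genes of cholesterol synthesis had the list median furthest from 0. In C1q-high cells 0 of 11 counted genes were at least 2-fold higher in TAK-931 and 5 at least 2-fold lower (8.14% of all genes), with a list median of -0.72 beside -0.08 over all genes. Fdps was at 39.4 and 9.31 CPM (-2.08, -2.47 to -1.69), Idi1 at 11.9 and 3.35 (-1.83, -2.52 to -1.09), Sqle at 6.23 and 2.09 (-1.58, -2.51 to -0.53), Dhcr7 at 8.82 and 3.48 (-1.34, -2.11 to -0.49) and Cyp51 at 15.1 and 6.74 CPM (-1.16, -1.74 to -0.53). In monocyte-like cells 0 of 9 were higher and 5 lower (3.49% of all genes), with a list median of -1.14 beside 0.10 over all genes. There Idi1 was at 61.5 and 5.48 CPM and Fdps at 99.0 and 9.67 CPM. Both classes also held more tumour RNA in vehicle, 1231 against 408 CPM in C1q-high and 1298 against 375 CPM in monocyte-like cells, and its part in these values was not tested.
Among 12 counted scavenger and lipoprotein receptors of C1q-high cells, 0 were 2-fold higher and 2 were 2-fold lower (9.15% and 8.14% of all genes), Msr1, a scavenger receptor for modified lipoproteins (325 and 103 CPM, -1.66, -1.79 to -1.53), and the haemoglobin receptor Cd163 (42.0 and 12.3, -1.77, -2.13 to -1.40). Of 15 lysosomal genes 1 was 2-fold lower, the ceramidase Asah1 (240.3 and 105 CPM, -1.19, -1.34 to -1.05). Of 15 genes of lipid storage and fatty acid binding, 2 were 2-fold higher (9.15% of all genes), Fabp4 (6.75 and 46.6 CPM, 2.79, 2.01 to 3.70) and the lipase Mgll (1 and 177 UMIs, 3.89, 1.39 to 9.20). Of 13 genes of lipoproteins and cholesterol export 1 was 2-fold higher, Apoc1 (5.71 and 29.3 CPM, 2.36, 1.51 to 3.37). Abcg1, a cholesterol exporter beside Abca1, was at 221 and 392 CPM (0.83, 0.69 to 0.97), and in monocyte-like cells at 63.0 and 254 CPM (2.01, 1.57 to 2.49).
Of 11 transcription factors, Mitf was 2-fold higher (13 and 31.5 CPM, 1.28, 0.71 to 1.92) and Tfec 2-fold lower (32.2 and 9.49 CPM, -1.76, -2.18 to -1.33). Nr1h3, which encodes the cholesterol-sensing receptor LXR alpha, was at 119 and 117 CPM. Pparg was at 38.4 and 50.3 CPM in C1q-high cells, and in monocyte-like cells it had 4 vehicle UMIs (6.00 CPM) against 24.6 CPM. Among 12 genes tied to TREM2 signalling, Cst7 was 2-fold higher (4.67 and 13.5 CPM, 1.53, 0.59 to 2.68) and the list median was 0.01. None of 6 osteopontin receptor genes passed 2-fold, and Cd44 was at 227 and 308 CPM. Of 5 counted partners of lipoprotein lipase, Gpihbp1, its anchor on capillary endothelium, had 0 and 71 UMIs in C1q-high cells, at least 0.99 on the log2 scale against a floor of 3 UMIs in the vehicle sum, and 1064 and 770.2 CPM in endothelial-like cells. Apoc2, the activator of the lipase, was at 90.8 and 93 CPM in C1q-high cells.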

How the data were processed

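Single cells of 2 tumours were profiled with droplet 3′ chemistry (v3.1). The authors counted reads with Cell Ranger 6.0.0 against mm10, per the submitters' processing notes (the study's methods name a human build, which the mouse identifiers contradict), and the deposited matrices hold raw UMI counts per gene and barcode, not normalized. The vehicle library held 144767193 and the TAK-931 library 77369283 UMIs. Columns of other samples numbered 0.

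Barcodes were filtered at the study's limits and doublets were not removed, but cells in 2 lineages' gates (80 and 275) were left out in an alternative. Limits per 10000 UMIs were 40 for phagocytes, 80 for J558, 15 for endothelium, 20 for T and mural, 30 for fibroblast, 40 for NK and neutrophil and 5 for dendritic and B cells; a cell took the class with the largest score relative to its limit. Limits were set from the markers after the files were seen. CPM are UMIs summed over the cells of a class in 1 library, per 1000000 UMIs of that sum. Levels carry exact Poisson, shares Clopper-Pearson and ratios exact conditional 95% intervals, and counts of 0 a floor of 3 UMIs. A gene was counted from 50 UMIs over the pair of sums and called at 2-fold, with 0.5 UMI in place of 0. Thinning was to 4000 UMIs. Clusters used 2000 variable genes without the members, 20 components, 20 neighbours and resolution 0.5 (leidenalg 0.10.2, igraph 0.11.9, scikit-learn 1.9.0). Scripts ran under pandas 2.3.3, scipy 1.17.1, numpy 2.4.6 and python 3.11.15 and were tested on simulated data. Promoters are from RefSeq, positions from the GENCODE annotation, both mm10.

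The members, gene lists and comparisons were chosen with earlier results of these data known. Named beside the members were wider-list genes past 2-fold in C1q-high cells, fixed partners (Tyrobp, Gpihbp1, Cd44, Abcg1, Fabp4, Apoc2) and the 2 genes nearest to each member. Other genes were named after their values were seen. Alternatives changed the cell filters, the C1q and monocyte limits, doublet handling, scaling, averaging, free RNA and single cells.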

Additional observations from a re-analysis of the deposited data

Results flagged for a closer look

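Apoe and Lpl differed between the libraries in opposite directions in the 2 phagocyte classes, with intervals that excluded 0 in both. The log2 ratio of TAK-931 to vehicle for Apoe was 0.09 in C1q-high and -0.97 in monocyte-like cells, and that for Lpl was -0.18 and 2.78. The C1q-high Lpl direction did not hold in every alternative: the ratio was 0.01 with median scaling, 0.23 without the 5 highest cells, 0.10 in cells without monocyte markers and 1.2 within cluster 3. For Cd36 the ratio of C1q-high to monocyte-like cells was 2.22 in vehicle and -0.81 in TAK-931. With 1 library per group none of these differences was tested.

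Barcodes outside the cell filter also held most members above the vehicle level, while Spp1 was not higher, at 88.1 and 82.1 CPM in the first and 156 and 64.2 CPM in the second kind below. Among barcodes with at most 2000 genes and under 15% mitochondrial UMIs, Apoe was at 1737 CPM in vehicle (950 barcodes) and 4030.1 CPM in TAK-931 (1663 barcodes), and Cd36 at 2.96 and 66.6 CPM. Among those with 15% or more mitochondrial UMIs, Apoe was at 189.8 CPM (174 barcodes) and 4316 CPM (1407 barcodes), and Cd36 at 8.83 and 95.4 CPM. The C1q limit was passed by 73 and 492 of the first and by 2 and 454 of the second kind of barcode.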

How the results depend on the processing

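The higher monocyte-like levels of Cd36, Lpl, Abca1 and Fabp5 and the lower level of Trem2 kept their direction in every alternative that gave a value. The log2 ratio ranged from 3.15 to 4.27 for Cd36, from 2.40 to 3.29 for Lpl and from -1.98 to -1.53 for Trem2. The number of members at least 2-fold lower in monocyte-like cells was 2 in place of 1, with Apoe past the limit, with Leiden clusters, the mean of each cell's CPM, free RNA subtracted, and, chosen after seeing the data, a monocyte limit of 20 and the gate within cluster 4, where 3.06% to 3.88% of all genes were that much lower. In C1q-high cells 1 member was at least 2-fold higher, in place of 0, with scaling by the median ratio, with the mean of each cell's CPM, without cells holding endothelial markers and without those holding monocyte markers, where 7.11% to 11.9% of all genes were that much higher. The number was 3 without the 5 highest cells (5 of 126 but 5 of 1180, 24.2% of all genes), 3 within cluster 3 (10.2%), 4 within cluster 7 (5.43%), and 2 in cells with monocyte markers (16.0%), where 2 others were at least 2-fold lower (8.69%). The Lpl ratio of -0.18 turned to 0.01 with median scaling, 0.23 without the 5 highest cells, 0.10 in cells without monocyte markers and 1.2 within cluster 3. That of Gpnmb turned to 1.70 without cells holding endothelial markers, 1.57 without those holding monocyte markers, and 1.12 and 0.03 within clusters 3 and 7. Spp1 turned to -0.35 in cells with monocyte markers and -0.62 within cluster 3, Fabp5 to -0.31 in cells with monocyte markers, and Trem2 to 0.36 and Cd36 to -0.08 within cluster 7. The splits by monocyte markers, clusters and endothelial markers were chosen after seeing the data, and the causes of these shifts were not tested. No paired analysis was possible because each group has 1 library. Vehicle sums of 4 to 12 UMIs limit the monocyte-like ratios of Cd36, Lpl and Abca1.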

Other observations

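The members were also read along the C1q score of the phagocytes. In TAK-931, from the 464 cells with under 1 C1q UMI per 10000 to the 728 cells with 80 or more, Apoe stood at 2654 and 22938 CPM, Trem2 at 25.6 and 245, Pltp at 118 and 605, and Fabp5 at 357 and 1402. Spp1 ran from 306 down to 72.2 CPM and Cd36 from 115 to 45.1 CPM. In vehicle the same ends (81 and 96 cells) stood at 6199.9 and 19472 CPM for Apoe, 94.1 and 340.4 for Trem2, 277 and 49.0 for Spp1, and 5.62 and 32.0 CPM for Cd36. The 39 non-classical monocyte-like cells, seen in TAK-931 only, held Cd36 at 785 CPM, a UMI of it in 76.9% of thinned cells, and Trem2 at 3.07 CPM on 1 UMI. Their median endothelial marker score was 4.31 per 10000 UMIs, against 0 in monocyte-like and 45.5 in endothelial-like cells of TAK-931. The part of endothelial RNA in their Cd36 level was not tested.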
